A study of Homo sapiens with 19 samples.

Results

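CD33 and 7 related genes of sialic acid-binding lectins of the immunoglobulin superfamily (Siglecs), namely SIGLEC1, SIGLEC5, SIGLEC6, SIGLEC7, SIGLEC9, SIGLEC10 and CD22, were followed through the CUT&RUN peak lists of MOLM-13 cells. These 8 genes, of 19388 protein-coding genes in GENCODE release 44, were taken by name. For each one, the bp lying under peaks were summed per library within 10 kb of the transcription start site (TSS) and, separately, over the gene body. MOLM-13 is an established human acute myeloid leukaemia line, and in CUT&RUN an antibody directs a nuclease to release the chromatin fragments that carry a mark. The lists analysed cover 3 histone marks, H3K27ac, H3K4me2 and H3K4me3, each with 2 libraries from cells treated for 24 h with Corin and 2 from cells that received the vehicle DMSO. Corin is a dual inhibitor of the CoREST complex that blocks its demethylase LSD1 and its histone deacetylases, and the comparison with DMSO addressed where these marks lie under that inhibition. The labelled dose is 0.1 µM, which is also given for the DMSO libraries, where its meaning is unclear. Of the 19 libraries of the series, 7 were not analysed here: 4 in which Corin was combined with all-trans retinoic acid, 2 IgG controls and 1 for LSD1. The labels do not say whether libraries of one group came from separate cultures, so p-values measure the spread between these libraries.

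Siglecs are cell-surface receptors that read sialic acids at the ends of glycans. Most carry cytoplasmic tyrosine motifs that recruit the phosphatases SHP-1 and SHP-2 and dampen activation of the cell, while a few pair with activating adaptors such as DAP12 instead. CD33 is the antigen by which myeloid leukaemia cells are commonly recognised and is the target of an antibody-drug conjugate. The genes close to CD33 in sequence lie in a cluster on chromosome 19 with many pseudogenes, whereas CD22, a B cell receptor, and SIGLEC1, the macrophage receptor sialoadhesin, lie elsewhere. Of the marks, H3K27ac lies at active promoters and enhancers, H3K4me2 at promoters and enhancers whether strongly active or not, and H3K4me3 mostly at promoters in use. LSD1 removes H3K4me2 but not H3K4me3.

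Peak number moved with the treatment over the whole genome. The H3K27ac lists held 30029 and 34424 peaks after Corin against 17599 and 19995 after DMSO, and the covered length was 1.96-fold higher in the mean for H3K27ac, 1.28-fold for H3K4me2 and 1.06-fold for H3K4me3. Reads were not used here, so library depth is unknown and no counting interval was computed. The labelled cell type was checked by H3K4me3 peaks within 1 kb of the TSS of marker genes. Such a peak was present in at least 1 library for 8 of 10 myeloid markers (SPI1, CEBPA, CEBPB, LYZ and FLT3 in all 4 libraries; none at MPO or ITGAM), 0 of 6 B cell, 0 of 6 T cell, 1 of 4 natural killer cell and 1 of 5 erythroid markers.

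The 3 marks divided the 8 genes into 4 sets. CD33 carried peaks of all 3 marks, SIGLEC9 and SIGLEC7 carried H3K27ac and H3K4me2, and SIGLEC10, SIGLEC6, SIGLEC1 and CD22 carried H3K4me2 alone. The protein-coding SIGLEC5 record had no peak of any mark within 10 kb of its TSS or over its body in any of the 12 lists. No H3K4me3 peak lay in the window of 7 of the 8 genes (87.5%), whereas 43.4% of all protein-coding genes lacked one. The corresponding shares without a peak were 62.5% of the 8 genes and 47.2% of all genes for H3K27ac, and 12.5% and 29.0% for H3K4me2.

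**Figure D1:**
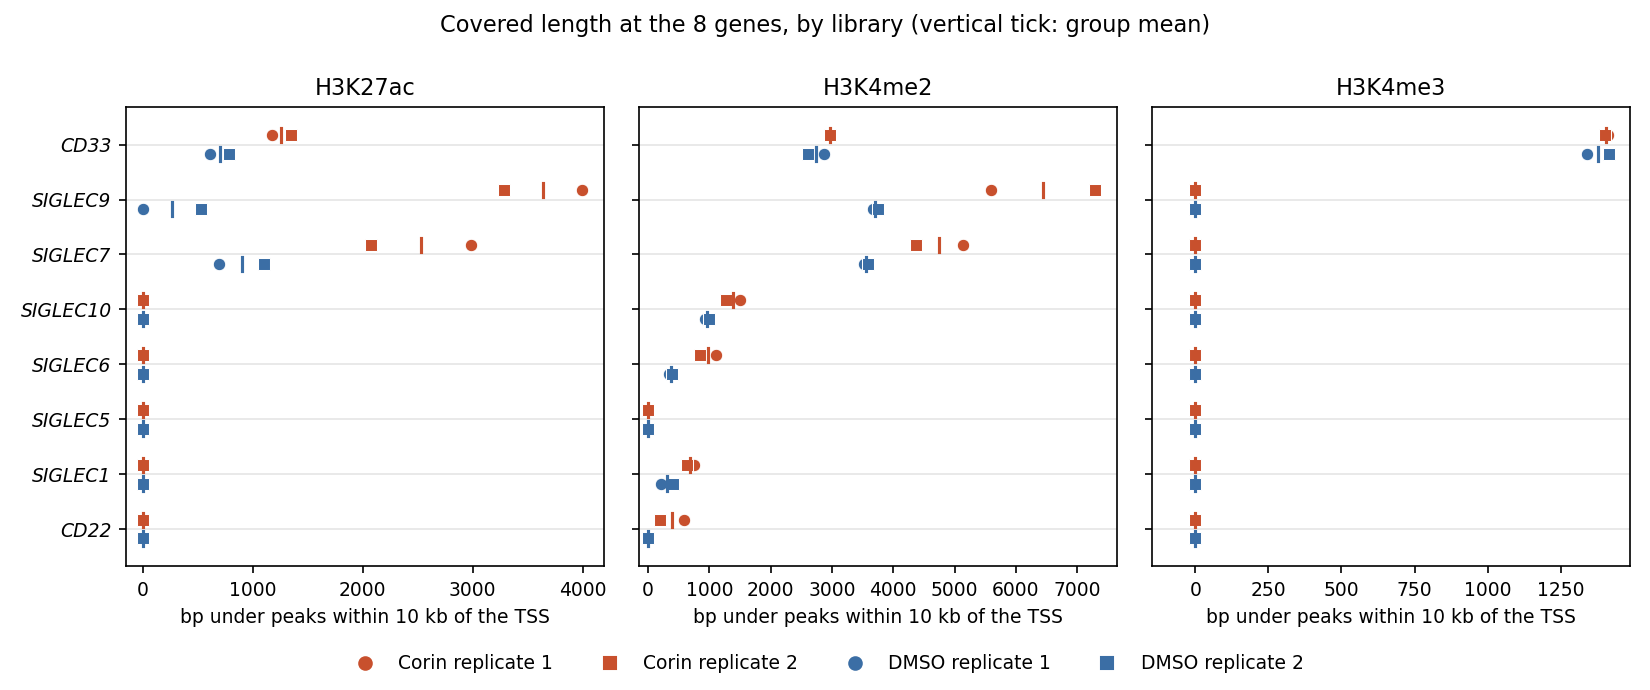
Length under peaks within 10 kb of the TSS of each gene (x axis, bp; 1 panel per mark, each with its own scale), with 1 symbol per library and a vertical tick at the mean of the 2 libraries of a group. The 2 Corin symbols lie above both DMSO symbols for CD33, SIGLEC9 and SIGLEC7 in H3K27ac and for 7 genes in H3K4me2, while the CD33 symbols overlap in H3K4me3.

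A gene was counted as higher when both Corin libraries covered more bp of its window than both DMSO libraries. In H3K27ac all 3 genes with a peak were higher (CD33, SIGLEC7 and SIGLEC9) and none was lower. The background share was high, since 54.3% of 10245 protein-coding genes with an H3K27ac peak in the window in at least 1 library were higher and 0.605% lower. In H3K4me2, 7 of 7 genes with a peak were higher, against a background of 39.5% higher (5431 genes) and 3.94% lower (542 genes) of 13758. In H3K4me3 the single gene with a peak, CD33, had overlapping groups, against 26.0% of 10969 genes higher and 8.36% lower. The median difference, Corin minus DMSO, over the genes with a peak was 1631.5 bp in H3K27ac and 427 bp in H3K4me2, beside 443.5 and 229.5 bp over all genes tested. Over all 8 genes, those without a peak included, it was 0 bp in H3K27ac, 410 bp in H3K4me2 and 0 bp in H3K4me3. CD22 entered the H3K4me2 count through its Corin libraries alone, so it had to be higher. The windows of SIGLEC7 and SIGLEC9 share 2606 bp, and no claim for the set rests on these counts. With the lists cut to equal numbers of top-scoring peaks per mark, 3 genes were higher in H3K27ac, where 34.9% of 9292 genes were higher and 322 lower. At matched number 5 genes were higher in H3K4me2, where 31.0% of 13505 genes were higher (4183) and 1049 lower.

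Counted by region rather than by gene, the windows and bodies of the 8 genes held 9 H3K27ac regions, of which 6 covered more bp in both Corin libraries and 1 was gained, that is, had a peak in both Corin libraries and in neither DMSO library. Over the genome 31.1% of H3K27ac regions were higher in bp, 0.649% lower, 11.5% gained and 0.180% lost. H3K4me2 had 17 regions at these genes, 10 of them higher and 2 gained, where 39.1% of all regions were higher, 2.93% lower, 9.64% gained and 0.158% lost. H3K4me3 had 1 region, which was neither, where 22.6% were higher, 8.22% lower, 1.49% gained and 0.289% lost. No region at these genes was lost or lower in any mark.

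With 2 libraries against 2, an exact two-sided permutation test has 6 arrangements and cannot give a p below 0.333, the value for each gene counted as higher. A limma fit across all genes, which pools the spread, was therefore the test of single genes, with Benjamini-Hochberg adjustment over all genes of a mark. It passed 0.05 for 1 of the 3 genes in H3K27ac (SIGLEC9), where 0.205% of all genes passed upwards (21 genes), none downwards, and 2429 genes had an unadjusted p under 0.05. In H3K4me2 limma passed 0.00% of genes, although 1892 had an unadjusted p under 0.05, SIGLEC6, SIGLEC7 and SIGLEC9 among them. In H3K4me3 it also passed 0.00%, with 744 genes under 0.05 unadjusted, and CD33 was not one of them.

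CD33 had an H3K4me3 promoter peak whose groups overlapped, a broad H3K4me2 promoter peak that differed by 1.08-fold, and more bp of H3K27ac in both Corin libraries. None of these differences passed the limma test. CD33 (ENSG00000105383.15) spans chr19:51225064-51243860 of hg38 on the plus strand, with its TSS at 51225080. The H3K4me3 peak covered 1412 and 1402 bp in the 2 Corin libraries and 1340 and 1416 bp in the 2 DMSO libraries. The groups overlapped, the difference of 29 bp was within the spread (exact permutation p = 1), and limma gave an adjusted p of 0.985. H3K4me2 covered 2962 and 2965 bp after Corin, against 2878 and 2607 bp after DMSO. Both Corin libraries were higher, by 221 bp in the mean (85.5 bp without DMSO replicate 2 and 356.5 bp without DMSO replicate 1), with a limma adjusted p of 0.804. H3K27ac covered 1178 and 1346 bp after Corin, against 614 and 787 bp after DMSO. Its groups did not overlap, with 1262 ± 119 against 700.5 ± 122 bp (SD, n = 2 each), a 1.80-fold ratio, a limma difference of 561.5 bp with a standard error of 318 and an adjusted p of 0.297. The difference was the same at matched peak number and was 1050.5 bp with peaks of a score of at least 100. All of this coverage lay in 1 region per mark, chr19:51225102-51226479 for H3K27ac, chr19:51225086-51228055 for H3K4me2 and chr19:51225071-51226514 for H3K4me3, over the first exons and introns of the gene. In score, which was used here only to rank peaks within a list, the H3K4me2 promoter peak stood above 96.2% to 98.1% of the peaks of its list. The H3K4me3 peak stood above 44.1% to 67.1%.

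The CD33 promoter peaks lay almost wholly on the gene side of the TSS. The first H3K4me3 and H3K4me2 peaks began within 53 bp of the TSS in all 8 libraries, and the first H3K27ac peak began 22 to 35 bp after it in 3 libraries and 439 bp after it in DMSO replicate 1. In the 500 bp before the TSS, 9 bp were covered in 1 H3K4me3 library (Corin replicate 2) and 0 bp in the other 11 libraries. In the 500 bp after it, H3K4me3 covered 492, 500, 481 and 481 bp and H3K4me2 486, 494, 447 and 490 bp (Corin replicates 1 and 2, then DMSO replicates 1 and 2), so both marks filled nearly the whole of that stretch in each library. H3K27ac covered 278, 467, 61 and 364 bp there, with the lowest value in DMSO replicate 1. Among genes with a peak after the TSS in all 4 libraries, 7.63% of 9039 (H3K4me3), 2.72% of 7801 (H3K4me2) and 5.54% of 3648 (H3K27ac) had no more coverage before the TSS than CD33. This comparison was added after the peak positions were seen and is a description without a test. The promoter just before these peaks is shown because it carries matches to the motifs of myeloid transcription factors. It is given from hg38 on the plus strand, chr19:51224830-51225079, which ends at the base before the TSS, with matches to the motifs of PU.1 (GAGGAA) and RUNX (TGTGG) in capitals on either strand. The RUNX letters begin 129 and 103 bases before the TSS and the PU.1 letters 90 and 10 bases before it, none overlapping another.
CD33 promoter: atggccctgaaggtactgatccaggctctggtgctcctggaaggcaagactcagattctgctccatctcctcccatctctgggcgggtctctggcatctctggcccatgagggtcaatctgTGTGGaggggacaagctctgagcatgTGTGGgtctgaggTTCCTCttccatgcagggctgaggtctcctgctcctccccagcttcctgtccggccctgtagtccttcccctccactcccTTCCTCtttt
Of 19388 protein-coding promoters of the same length, 23.2% hold the PU.1 letters and 40.4% the RUNX letters at least once. The CD33 window holds no match to C/EBP (GCAAT), GFI1 (AAATC) or MYB (AACNG), which 18.1%, 24.0% and 67.1% of promoters hold. A match describes letters and not binding, and the absence of one says nothing of the factor.

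**Figure D2:**
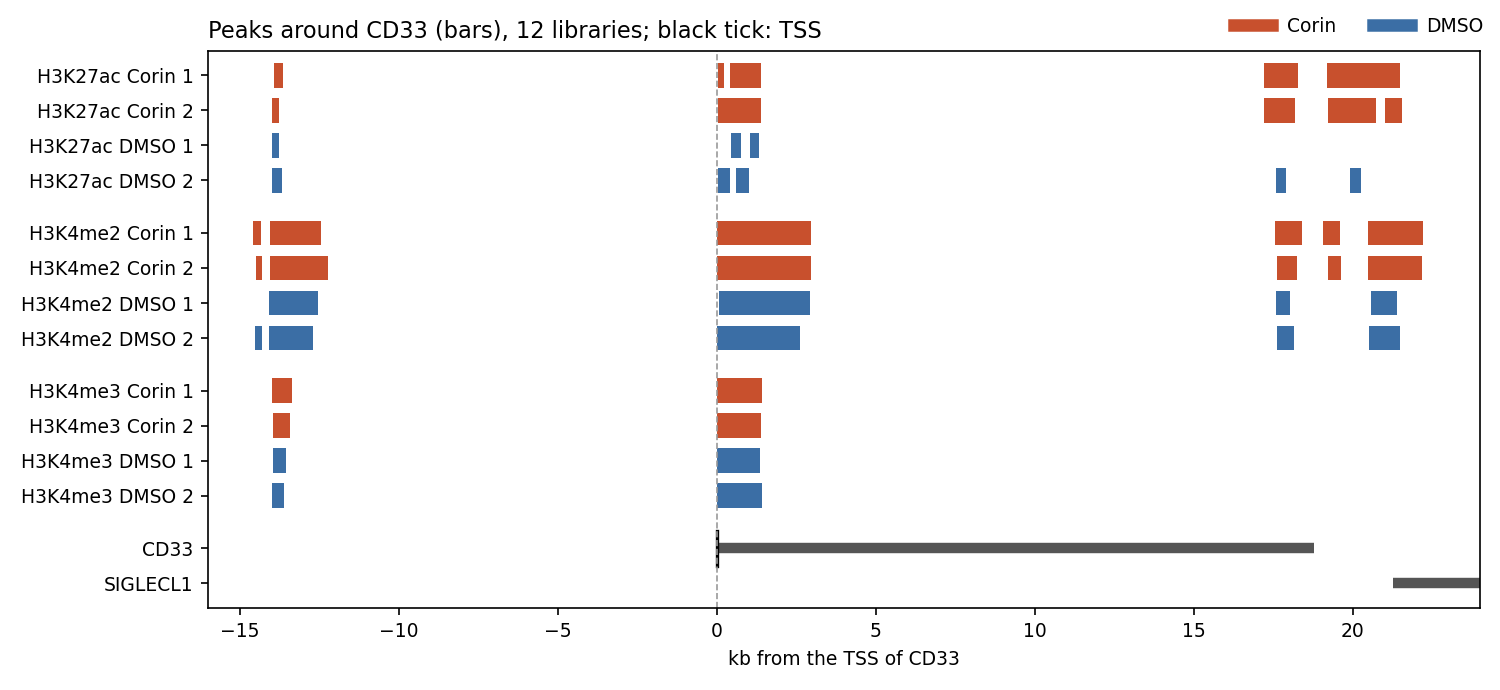
Peaks of the 12 libraries around CD33 (x axis, kb from the TSS of CD33; bars are peaks, 1 row per library, with the gene bodies of CD33 and SIGLECL1 below). Promoter peaks of all marks lie to the right of the TSS, their summed H3K27ac length is greater after Corin (1178 and 1346 against 614 and 787 bp), and the H3K27ac bars between 17 and 22 kb are present in both Corin libraries and short or missing after DMSO.

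A second H3K27ac region of CD33 lay near the 3′ end of the gene and covered more bp in both Corin libraries. At chr19:51242286-51243361, over exons and introns 17206 to 18281 bp after the TSS, H3K27ac covered 1073 and 996 bp after Corin, against 0 and 302 bp after DMSO. H3K4me2 was present there in all 4 libraries, with 857 and 613 bp after Corin, against 437 and 554 bp after DMSO at chr19:51242646-51243502. Neither mark's groups overlapped. With this region counted, the CD33 body carried 2251 and 2342 bp of H3K27ac after Corin against 614 and 1089 bp after DMSO, a 2.70-fold ratio and a difference of 1445 bp with a limma adjusted p of 0.159. Over gene bodies, 2 of the 3 genes with an H3K27ac peak in the body, CD33 and SIGLEC9, were counted as higher. Of all genes with a peak in the body, 52.9% were higher and 0.977% lower. Limma passed 0.00% of genes over bodies in each mark. In H3K4me2 the CD33 body carried 3819 and 3578 bp after Corin, against 3315 and 3161 bp after DMSO, 1.14-fold higher. In H3K4me2, 7 of the 7 bodies with a peak were higher (background 39.5% higher and 4.87% lower), and in H3K4me3 the CD33 body had overlapping groups (background 23.5% and 9.15%). Just beyond CD33, toward the related gene SIGLECL1, H3K27ac at chr19:51244289-51246647 covered 2290 and 2042 bp after Corin, against 0 and 344 bp after DMSO. An H3K4me2 peak at chr19:51244135-51244722, between the genes, was found in both Corin libraries (546 and 414 bp) and in neither DMSO library. In both marks the Corin libraries exceeded the DMSO libraries downstream of CD33, while the promoter's H3K4me2 differed by 1.08-fold.

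SIGLEC9 had the largest differences among the 8 genes in both H3K27ac and H3K4me2. It encodes an inhibitory Siglec of neutrophils and monocytes. SIGLEC9 (ENSG00000129450.9) spans chr19:51124906-51136651 on the plus strand and starts at 51124906. H3K27ac covered 3996 and 3287 bp of its window after Corin, against 0 and 529 bp after DMSO. The groups were far apart, with 3641.5 ± 501.3 against 264.5 ± 374 bp (SD, n = 2 each), a limma difference of 3377 bp with a standard error of 479 and an adjusted p of 0.0449. This difference ranked 130 of 10245 genes. By unadjusted p SIGLEC9 ranked 7, and its adjusted p was the lowest of the mark, a value that SIGLECL1 shared. The limma call was lost with any 1 library left out. Such a fit has 1 library in a group, so it cannot show which library the call rests on. The difference then lay between 3022.5 bp (without Corin replicate 1) and 3731.5 bp (without Corin replicate 2). The call was also lost at matched peak number (limma adjusted p 0.286), where the difference was still 2790.5 bp. H3K4me2 covered 5603 and 7287 bp after Corin, against 3662 and 3758 bp after DMSO. The Corin libraries were both higher, by 2735 bp or 1.74-fold, a difference that ranked 58 of 13758 genes, with a limma adjusted p of 0.149.

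The SIGLEC9 difference in H3K27ac came from several regions. The widest, chr19:51122256-51124749, lay at -2650 to -157 bp from the TSS, over the pseudogene SIGLEC18P. It covered 2494 and 1595 bp in the Corin libraries and 0 bp in both DMSO libraries, and was the 1 gained H3K27ac region at the 8 genes. H3K4me2 was present at chr19:51122178-51125131 in all 4 libraries, with 2250 and 2569 bp after Corin, against 1718 and 1687 bp after DMSO. Inside the gene, H3K27ac at chr19:51127041-51127602 covered 441 and 499 bp after Corin, against 0 and 322 bp after DMSO. A neighbouring region, chr19:51127945-51129005, covered 1061 and 874 against 0 and 207 bp. Both lay over exons and introns and within the H3K4me2 region chr19:51126527-51130170, which covered 3143 and 3623 bp after Corin, against 1944 and 2071 bp after DMSO. At each of these places the DMSO libraries held more H3K4me2 than H3K27ac, and both marks covered more bp in both Corin libraries. Over the SIGLEC9 body, H3K27ac covered 1502 and 1973 bp after Corin, against 0 and 529 bp after DMSO, and H3K4me2 3801 and 4944 against 1944 and 2071 bp. A gained H3K4me2 region lay in an intron of SIGLEC9 at chr19:51131943-51132513, with 210 and 465 bp after Corin.

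SIGLEC7, which encodes the inhibitory Siglec best known from natural killer cells, starts 17395 bp after SIGLEC9 on the same strand (ENSG00000168995.13, chr19:51142299-51153526). H3K27ac covered 2986 and 2075 bp of its window after Corin, against 698 and 1100 bp after DMSO. The groups did not overlap, with a 2.81-fold ratio and a difference of 1631.5 bp, and limma gave an adjusted p of 0.0962. At matched peak number the difference was 1120.5 bp. H3K4me2 covered 5139 and 4366 bp after Corin, against 3523 and 3588 bp after DMSO, 1.34-fold higher with a limma adjusted p of 0.258. Most of the coverage of both marks lay in 1 element between the 2 genes, over an unprocessed pseudogene (ENSG00000267990). There H3K27ac at chr19:51136932-51139877 covered 2625 and 1769 bp after Corin, against 698 and 1100 bp after DMSO. H3K4me2 at chr19:51136865-51140078 covered 3137 and 3134 against 2885 and 2944 bp, a smaller difference over a region of similar width. In H3K27ac the element begins at -5369 bp from the SIGLEC7 TSS, and it lies in the window of SIGLEC7 but not of SIGLEC9. The body of SIGLEC7, which leaves this element out, had 148 bp of H3K27ac in Corin replicate 1 and 0 bp in the other 3 libraries. In H3K4me2 it had 1123 and 972 bp after Corin, against 501 and 417 bp after DMSO, a 2.28-fold ratio and a difference of 588.5 bp with a limma adjusted p of 0.177. At the SIGLEC7 TSS itself H3K27ac was found in Corin replicate 1 (361 bp) and in no other library. H3K4me2 at chr19:51142072-51142845 covered 768 and 534 bp after Corin, against 638 and 644 bp after DMSO, so the groups overlapped there. A gained H3K4me2 region of 576 and 591 bp lay in an intron of SIGLEC7 at chr19:51143461-51144131. This and the region in SIGLEC9 were the 2 gained H3K4me2 regions at the 8 genes.

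**Figure D3:**
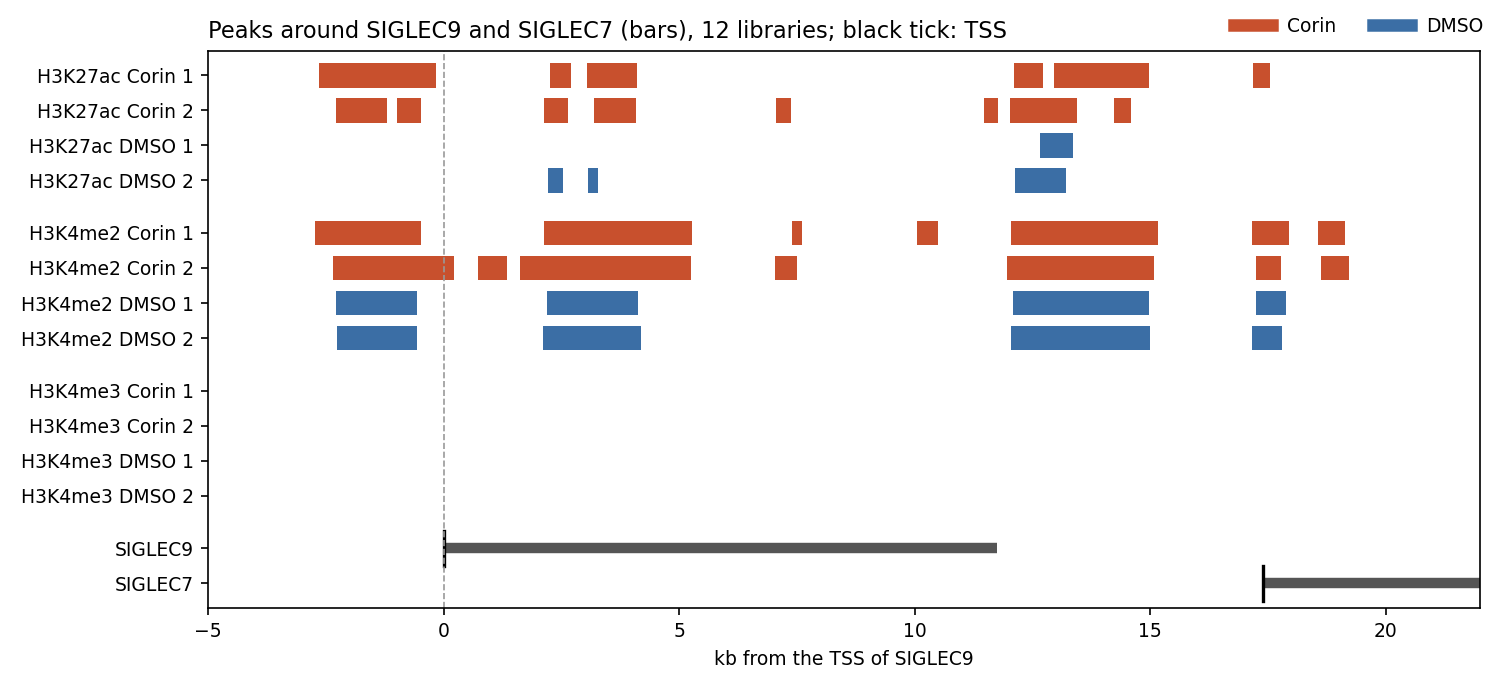
Peaks of the 12 libraries around SIGLEC9 and SIGLEC7 (x axis, kb from the TSS of SIGLEC9; bars are peaks, 1 row per library, with gene bodies below). H3K27ac bars before the SIGLEC9 TSS are present in the 2 Corin libraries and in neither DMSO library, H3K4me2 bars are present there in all 4, and the H3K4me3 rows are empty.

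The sequences of these 4 stretches are shown because the 2 promoters are near copies of each other and the other 2 are where H3K27ac lay. All are hg38, plus strand, with the 5 motifs above in capitals on either strand. The promoters are chr19:51124656-51124905 (SIGLEC9) and chr19:51142051-51142300 (SIGLEC7). The element, chr19:51137873-51138127, is the longest stretch under an H3K27ac peak in all 4 libraries. The gained stretch, chr19:51123009-51123308, is the centre of the longest stretch under a peak in both Corin libraries.
SIGLEC9 promoter: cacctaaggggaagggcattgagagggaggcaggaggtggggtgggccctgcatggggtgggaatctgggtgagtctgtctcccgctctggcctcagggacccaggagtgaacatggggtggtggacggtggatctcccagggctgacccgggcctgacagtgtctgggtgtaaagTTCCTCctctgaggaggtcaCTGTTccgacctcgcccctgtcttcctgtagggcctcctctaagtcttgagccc
SIGLEC7 promoter: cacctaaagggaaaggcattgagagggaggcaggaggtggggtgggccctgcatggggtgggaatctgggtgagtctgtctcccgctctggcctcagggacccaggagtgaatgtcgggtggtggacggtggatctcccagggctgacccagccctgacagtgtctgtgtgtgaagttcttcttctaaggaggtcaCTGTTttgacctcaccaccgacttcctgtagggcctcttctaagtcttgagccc
element between SIGLEC9 and SIGLEC7: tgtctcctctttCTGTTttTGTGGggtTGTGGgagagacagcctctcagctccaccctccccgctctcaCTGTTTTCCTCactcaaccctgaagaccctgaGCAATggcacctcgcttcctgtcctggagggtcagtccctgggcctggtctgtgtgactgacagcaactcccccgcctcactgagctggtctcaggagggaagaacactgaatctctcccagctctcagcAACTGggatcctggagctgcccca
gained region before SIGLEC9: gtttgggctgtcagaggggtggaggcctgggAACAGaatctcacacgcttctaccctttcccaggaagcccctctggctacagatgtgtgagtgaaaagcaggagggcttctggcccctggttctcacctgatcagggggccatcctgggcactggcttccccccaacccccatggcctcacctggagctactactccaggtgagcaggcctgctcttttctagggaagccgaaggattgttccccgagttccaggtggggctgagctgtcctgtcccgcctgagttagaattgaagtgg
The 2 promoters were identical at 231 of 250 aligned bases (92.4%), beside a median of 48.4% and a lowest value of 43.0% over all 28 pairs of the 8 promoters. How reads that match several places were handled is not given in the sources used here, which limits how far peaks at such copies can be assigned to 1 gene. The SIGLEC9 promoter holds 1 match to PU.1 letters, 74 bases before the TSS, and both hold 1 match to MYB letters 54 bases before it. The element holds 1 match to PU.1, 2 to RUNX, 1 to C/EBP and 3 to MYB letters. In the central 255 bp of all H3K27ac regions, 26.0% hold the PU.1 letters, 53.7% RUNX, 27.4% C/EBP and 75.3% MYB. The gained stretch holds 1 match to MYB, which 80.6% of regions hold at its length of 300 bp. Over the promoters of all 8 genes, 4 held the PU.1 letters, 6 RUNX, 2 C/EBP, 1 GFI1 and 7 MYB, beside the shares of all promoters given above.

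SIGLEC10, SIGLEC6 and SIGLEC1 each had an H3K4me2 peak at the start of the gene in all 4 libraries, with more bp after Corin and without H3K27ac or H3K4me3. SIGLEC10 (ENSG00000142512.15), an inhibitory receptor that binds CD24, lies on the minus strand at chr19:51410020-51417803. H3K4me2 covered 1505 and 1277 bp of its window after Corin, against 932 and 996 bp after DMSO. The groups did not overlap, with a 1.44-fold ratio, a difference of 427 bp (173 bp over the gene body) and a limma adjusted p of 0.450. The region at the start of the gene, chr19:51416759-51418035, also overlaps the 3′ part of the antisense transcript SIGLEC10-AS1. It covered 1221 and 1277 against 932 and 996 bp. SIGLEC6 (ENSG00000105492.16, chr19:51517819-51531856, minus strand), described in placenta and mast cells, had 1105 and 841 bp of H3K4me2 after Corin, against 344 and 395 bp after DMSO. All of it lay at chr19:51531166-51532270. The Corin peaks crossed the canonical TSS in both libraries and the DMSO peaks ended 177 and 68 bp before it. The gene record begins 186 bp further upstream, and that position lay under a peak in all 4 libraries. The ratio was 2.63-fold, the difference 603.5 bp and the limma adjusted p 0.258. Over the SIGLEC6 body alone the values were 691 and 624 bp against 10 and 119 bp, with a limma adjusted p of 0.149.

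SIGLEC1 and CD22 lie outside the cluster. SIGLEC1 (ENSG00000088827.14, chr20:3686970-3712600, minus strand) had 751 and 630 bp of H3K4me2 after Corin, against 205 and 408 bp after DMSO. The groups did not overlap, with a 2.25-fold ratio, a difference of 384 bp and a limma adjusted p of 0.440. Its region at the TSS, chr20:3712294-3712923, covered 480 and 630 against 205 and 408 bp, and a further 271 bp in an intron were found in Corin replicate 1 alone. At matched peak number the SIGLEC1 difference was 8.5 bp. CD22 (ENSG00000012124.17, chr19:35319261-35347361, plus strand), an inhibitory co-receptor of B cells, had 592 and 194 bp of H3K4me2 after Corin and 0 bp in both DMSO libraries. These came from 2 different regions with 1 library each, chr19:35323961-35324552 in Corin replicate 1 and chr19:35328917-35329110 in Corin replicate 2. Both lay before the canonical TSS, at -5226 to -4635 bp and at -270 to -77 bp. They are intronic only in the longer gene record, which begins 9926 bp further upstream. No CD22 region was shared by replicates, limma gave an adjusted p of 0.457, and the difference of 393 bp was 97 bp at matched peak number. Of the B cell markers, 3 of 6 (PAX5, EBF1 and CD79A) had an H3K4me2 peak within 1 kb of the TSS in all 4 libraries, 1 of 6 (CD79A) had H3K27ac in 3 libraries, and none had H3K4me3. SIGLEC5 (ENSG00000268500.7, chr19:51610960-51630401, minus strand), an inhibitory Siglec of neutrophils and monocytes, had its nearest H3K4me2 peak 15.0 to 35.2 kb from the TSS, by library. A second, non-coding record named SIGLEC5, chr19:51630101-51645545 on the minus strand, was not among the genes tested. The nearest H3K4me2 peaks of Corin replicate 1 and DMSO replicate 2, 14952 and 15001 bp from the TSS used, reach into it near its 5′ end. Those of Corin replicate 2 and DMSO replicate 1 do not.

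**Figure D4:**
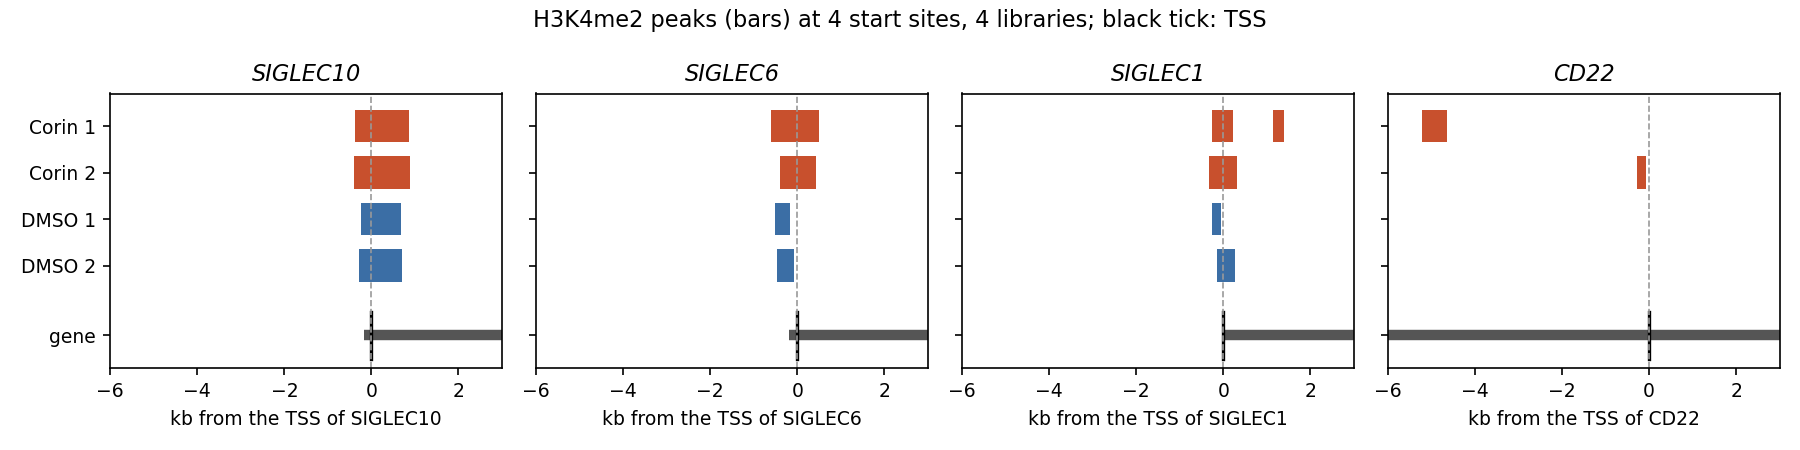
H3K4me2 peaks of the 4 libraries at SIGLEC10, SIGLEC6, SIGLEC1 and CD22 (x axis, kb from each TSS in the direction of transcription; bars are peaks, with the gene body below). The SIGLEC6 bars of both Corin libraries cross the canonical TSS and those of both DMSO libraries stop before it, although the gene body drawn begins under a peak in all 4, and the 2 CD22 bars lie at different places.

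The nearest H3K4me3 peak to the TSS, in any of the 4 libraries, was 15.9 to 16.5 kb away for SIGLEC9, 22.1 to 22.2 kb for SIGLEC10 and 33.3 to 33.9 kb for SIGLEC7. It was 39.6 kb away for SIGLEC6, 35.4 to 58.9 kb for SIGLEC5, 53.8 to 54.0 kb for SIGLEC1 and 59.4 to 59.5 kb for CD22. These 7 start sites had no H3K4me3 peak nearby in Corin or DMSO libraries, including SIGLEC7 and SIGLEC10, whose TSS lay under an H3K4me2 peak in all 4 libraries.

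The windows have equal length, so covered bp can be set side by side between genes. In H3K4me2 the order after DMSO was SIGLEC9, SIGLEC7, CD33, SIGLEC10, SIGLEC6, SIGLEC1 and then CD22 and SIGLEC5 at 0 bp. Among those neighbours SIGLEC6 (344 and 395 bp) and SIGLEC1 (205 and 408 bp) overlapped. After Corin the order was the same, with SIGLEC1 (751 and 630 bp) and CD22 (592 and 194 bp) next to each other and no neighbours overlapping. An exact permutation test of 2 libraries against 2 cannot pass 0.05, and the order of genes was not tested otherwise. In H3K27ac the order changed: after DMSO it was SIGLEC7 (899 ± 284 bp), CD33 (700.5 ± 122 bp) and SIGLEC9 (264.5 ± 374 bp), with SIGLEC7 and CD33 overlapping. After Corin it was SIGLEC9 (3641.5 ± 501.3 bp), SIGLEC7 (2530.5 ± 644 bp) and CD33 (1262 ± 119 bp), without overlap (SD, n = 2 each). The 2 Corin values of SIGLEC9 stood above 91.7% and 91.3% of the genes with a peak in the same library, whereas the 1 DMSO value above 0 stood above 26.2%.

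**Figure D5:**
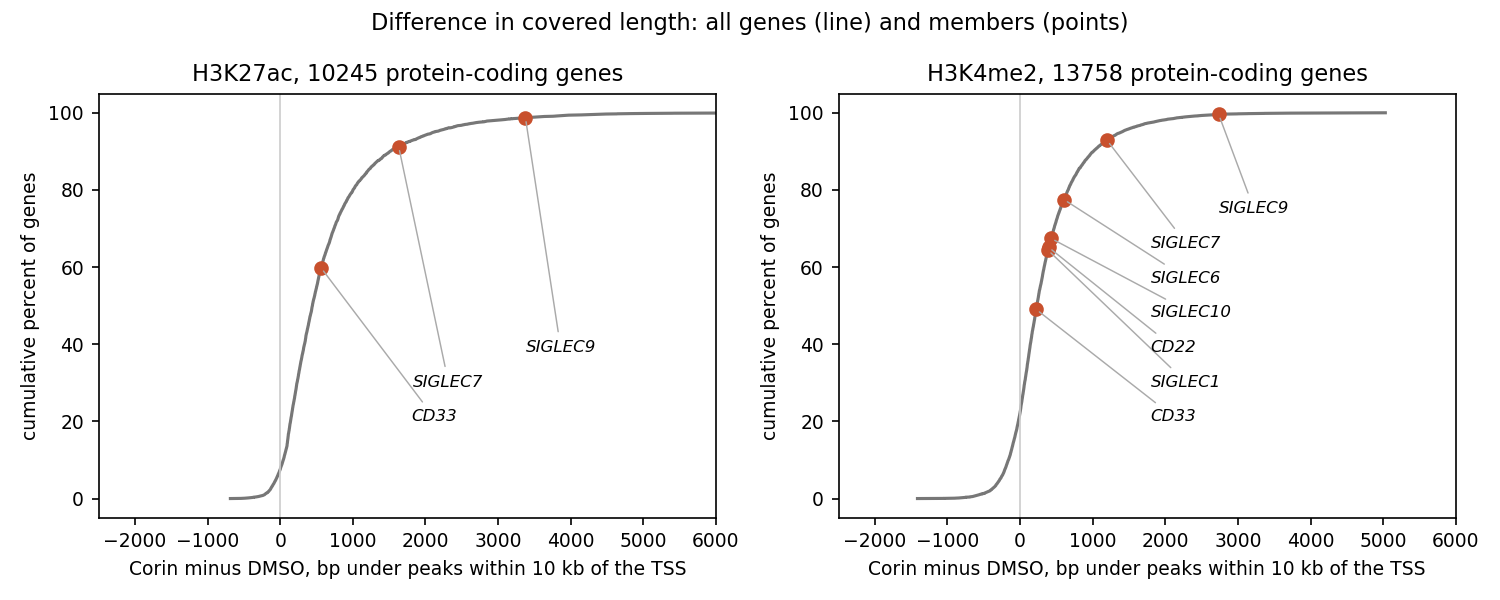
Difference in covered length, Corin minus DMSO (x axis, bp within 10 kb of the TSS), against the cumulative percent of all protein-coding genes tested (line), with the Siglec genes as points, for H3K27ac and H3K4me2. SIGLEC9 lies near the top of both curves (rank 130 of 10245 and 58 of 13758), and CD33 lies at 561.5 and 221 bp near the middle.

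Along the cluster from SIGLEC9 to SIGLEC5 (chr19:51124906-51630401, 505 kb with 19 protein-coding genes), H3K27ac covered 15886 and 17854 bp after Corin, against 4693 and 6517 bp after DMSO, a 3.01-fold ratio. The groups did not overlap, with an exact permutation p of 0.333, the smallest possible. H3K4me2 covered 45661 and 44059 against 32723 and 35455 bp, 1.32-fold, and H3K4me3 7770 and 8278 against 6184 and 9117 bp, 1.05-fold with overlapping groups. In the 144 kb from SIGLEC9 to SIGLECL1, which hold SIGLEC7 and CD33 as well, H3K27ac covered 9336 and 8377 bp after Corin, against 1547 and 3357 bp after DMSO. The ratio was 3.61-fold, and from 2.64-fold without DMSO replicate 1 to 5.72-fold without DMSO replicate 2, a range computed after the data were seen. There H3K4me2 was 1.55-fold and H3K4me3 1.13-fold higher in the mean. In the rest of the cluster the ratios were 2.54-fold in H3K27ac, 1.19-fold in H3K4me2 and 1.02-fold in H3K4me3. The ratios over the whole genome were 1.96-fold, 1.28-fold and 1.06-fold, and the difference between the cluster and the genome was not tested.

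Other Siglec genes also carried H3K27ac and H3K4me2 without H3K4me3. Of 8 listed, 4 had an H3K27ac peak in the window and 3 of these were higher (background 54.3%), and 6 had H3K4me2 and 4 of these were higher (background 39.5%). None of the 8 had H3K4me3. SIGLECL1 had 3363 and 3038 bp of H3K27ac after Corin, against 0 and 646 bp after DMSO, with a limma adjusted p of 0.0449, and its window takes in the regions downstream of CD33 described above. This call, like that of SIGLEC9, was lost without DMSO replicate 1, without DMSO replicate 2 and at matched peak number, where limma passed 0 genes in H3K27ac. SIGLEC11 and SIGLEC12 differed by 1235.5 and 1220 bp in H3K27ac, with limma adjusted p of 0.100 and 0.0724. In H3K4me2 the differences were 2304.5 bp at SIGLEC11, 2262.5 bp at its paired activating receptor gene SIGLEC16, 1530.5 bp at SIGLECL1 and 885.5 bp at SIGLEC12, none past the limma test. The windows of SIGLEC11 and SIGLEC16 overlap, so their differences are not separate observations.

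Genes through which Siglecs signal covered more bp of H3K27ac in both Corin libraries wherever they had a peak. Of 11 listed, 10 had an H3K27ac peak and 10 were higher, beside the background of 54.3%, and limma passed none. Some gaps were narrow, the narrowest at PTPN11, with 2183 and 1981 bp after Corin, against 1471 and 1969 bp after DMSO. PTPN6, which encodes SHP-1, had 11327 and 10622 bp after Corin, against 5280 and 5534 bp after DMSO, with a limma adjusted p of 0.0633. TYROBP (the adaptor DAP12) and its neighbour HCST, whose windows share most of their bp, differed by 2823.5 and 2641 bp, and INPP5D, a lipid phosphatase of inhibitory receptors, by 2267 bp. In H3K4me2, 8 of 11 were higher (background 39.5%) and CBL, a ubiquitin ligase, was lower, with a difference of -454 bp (limma adjusted p 0.505). In H3K4me3, 5 of 10 with a peak were higher, beside 26.0% of all genes.

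Genes that make and transfer sialic acid, the ligand of these receptors, were divided. Of 25 listed, 14 had an H3K27ac peak and 11 of these were higher, beside 54.3% of all genes. In H3K4me2, 9 of 20 were higher and 1 lower, near the background of 39.5% and 3.94%, and in H3K4me3, 7 of 17 were higher, beside 26.0%. ST3GAL4, a sialyltransferase, had the largest difference of the list in H3K27ac, 4584.5 bp, and 2440 bp in H3K4me2 (limma adjusted p 0.125 and 0.224). ST6GALNAC3 was the gene lower in H3K4me2, with a difference of -259.5 bp. Of the 4 sialidase genes, 2 of 2 with an H3K27ac peak and 3 of 3 with H3K4me2 were higher (background 54.3% and 39.5%). The median H3K27ac difference of those 2 was 256 bp, below the 443.5 bp of all genes tested, and the larger H3K4me2 differences were at NEU4 (1123.5 bp) and NEU3 (752 bp). Of 3 genes of sialylated ligands, SELPLG and SPN had H3K27ac and were both higher, by 4014.5 and 2061.5 bp (limma adjusted p 0.106 and 0.192).

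Over the 12 libraries, the genes whose covered lengths were most like those of CD33 were SYPL1, CEND1 and TMEM181, with a mean absolute difference from CD33 of 135, 150 and 159 bp. None of the other 7 Siglec genes was among them.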

How the data were processed

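CUT&RUN of H3K27ac, H3K4me2 and H3K4me3 was analysed in 12 MOLM-13 libraries from peak lists deposited by the authors, 1 per library, with positions and a score per peak. Trim Galore, Bowtie2, Picard and MACS2 and the build hg38 are named per the submitters' processing notes, without versions or roles. The peak control and threshold, and the definition of the deposited score, are not given in the sources used here. The lowest score is 50 in each list, and the score was used for ranking and filtering peaks inside each list. None of the 292523 peaks ended past an hg38 chromosome. Positions are counted from 1.

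Gene records came from GENCODE release 44 (645 readthrough records left out), with the TSS of the Ensembl canonical transcript. Bp under peaks within 10 kb of the TSS, or over the gene body, were summed with Python 3.11.15. Peaks of the 4 lists of a mark that overlapped by at least 1 bp were merged into regions. limma 3.58.1 in R 4.3.3, with trend and robust moderation, was fitted to the linear bp of all protein-coding genes with a peak in the window in at least 1 of 4 libraries. A run on simulated data moved only genes of high coverage, so it says nothing of recovery at genes with little coverage. Exact permutation tests were two-sided. Sequences were read from hg38, and motifs were searched on both strands.

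The members, lists and tests were chosen with earlier results of these data known. Named genes were the 8 members, up to 4 genes per list chosen from the largest differences among those whose groups did not overlap, and the 3 genes most like CD33. CBL and ST6GALNAC3, lower in H3K4me2, and PTPN11, with the narrowest H3K27ac gap of its list, were named besides. Replicates were numbered by the labels, and no depth per library is known, so precision rests on the 2 libraries per group. The alternatives were matched peak number, a score of at least 100, other windows, start sites and overlap rules, a replicate block, each library left out, and other limma settings.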

Additional observations from a re-analysis of the deposited data

How the results depend on the processing

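Of 110 recomputed differences over 11 member values (without the replicate block, which cannot move a difference of means here), 109 kept their sign, and the exception was CD33 in H3K4me3, at -9 bp without DMSO replicate 1. The limma call in H3K27ac was less stable. It named 1 member (SIGLEC9) as reported, with the start site at the 5′ end of the gene record, with peaks assigned by their centre and with a mean of at least 500 bp. It named 0 members at matched peak number, at a score of at least 100, within 5 kb (SIGLEC9 adjusted p 0.0775), over the gene body (0.155), without trend and robust moderation (0.0736) and on log2(bp + 500) (0.0993), and 0 to 0 with a library left out, where the lone library of a group is assumed to vary like the other group. Over all genes the same call counted 21 genes as reported and between 0 and 1389 elsewhere, and the cause was not tested. With the replicate number as a block (replicate block), limma named 2 members in H3K27ac (SIGLEC7, adjusted p 0.0138, and SIGLEC9, 2.94e-07) and 1 in H3K4me2 (SIGLEC9, 0.00697), and changed no other member's call. Over all genes the blocked fit passed 1389 of 10245 in H3K27ac and 588 of 13758 in H3K4me2. Same-numbered libraries deviated together with correlations of 0.294, 0.316 and 0.236 for H3K27ac, H3K4me2 and H3K4me3, but there are 2 pairs per mark and what a shared number stands for is not labelled, so the pairing is not part of the design. In H3K4me3 the members higher, and likewise those lower, ranged from 0 to 1 with a library left out, since CD33 then has 1 library on one side. Members higher in H3K27ac numbered 3 in each alternative except the gene body (2), and in H3K4me2 7 except at matched number and at a score of at least 100 (5 each). These counts stand beside unlike backgrounds. The share of all genes higher ran from 34.9% (matched number) to 80.8% (without Corin replicate 2) in H3K27ac. For H3K4me2 it ran from 31.0% (matched number) to 66.3% (without Corin replicate 2). Covered length follows the peak threshold and the unknown depth of each list, and peak absence does not show that a mark is absent.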

Other observations

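Between SIGLEC7 and CD33, a stretch of pseudogenes and long non-coding RNAs also carried peaks. Over SIGLEC17P, H3K4me2 at chr19:51167120-51168211 covered 572 and 1092 bp after Corin, against 0 and 446 bp after DMSO. A further H3K4me2 region in its intron, chr19:51168916-51169468, was found in both Corin libraries (264 and 519 bp) and in neither DMSO library. Neither region had H3K27ac or H3K4me3 in any library. Over SIGLEC22P and the long non-coding RNA ENSG00000290859, 14.0 kb before CD33, all 3 marks were present in all 4 libraries. H3K4me3 at chr19:51211080-51211705 covered 626 and 561 bp after Corin, against 422 and 351 bp after DMSO, so the groups did not overlap, while H3K27ac at chr19:51211084-51211445 covered 307 and 226 against 235 and 295 bp and overlapped. This is the opposite arrangement to the CD33 promoter, where H3K27ac parted the groups and H3K4me3 did not. The difference between the 2 places was not tested.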
